A study of Arabidopsis thaliana with 12 samples.

Results

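The type-A response regulators of Arabidopsis thaliana were followed through auxin treatment and through the loss of 2 receptor kinases in whole seedlings. The 10 members were ARR3 (AT1G59940), ARR4 (AT1G10470), ARR5 (AT3G48100), ARR6 (AT5G62920), ARR7 (AT1G19050), ARR8 (AT2G41310), ARR9 (AT3G57040), ARR15 (AT1G74890), ARR16 (AT2G40670) and ARR17 (AT3G56380). They were taken by their locus codes from a table of 37336 genes. Transcripts were counted by RNA sequencing in 12 libraries, 3 in each of 4 groups. Wild-type Col-0 seedlings and er erl2 seedlings (er-105 erl2-1, in the same Col-0 accession) were 3 days past germination. They were moved from solid to liquid MS medium (Murashige and Skoog salts) for 30 min and then given either 1 µM IAA (indole-3-acetic acid, an auxin that plants make) or a mock treatment for 30 min. Both treatments contained 0.02% dimethyl sulfoxide, so that all 4 groups share the solvent and the move to liquid. ER and ERL2 encode receptor kinases of the ERECTA family, and the third member of that family, ERL1, was not mutated in either genotype.

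Cytokinin is sensed by histidine kinase receptors, which pass a phosphate through mobile phosphotransfer proteins to response regulators in the nucleus. Type-B response regulators are transcription factors that switch on the primary response genes. Among those genes are the type-A regulators, short proteins with a receiver domain and no DNA-binding domain, which feed back on the pathway and lower its output. In the root and shoot meristems auxin and cytokinin act on each other, and ARR7 and ARR15 are known as genes where both hormones meet.

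Libraries held 28930625 to 35837999 counts, 21376 genes passed the filter on low counts, and all 10 members were among them. The label checks came first. ER lay at 60.6 ± 3.44 CPM (counts scaled to 1000000 per library, after TMM, trimmed mean of M-values, scaling; mean ± SD, n = 3 here and in every group) in wild-type mock libraries and at 6.55 ± 1.86 in er erl2 mock libraries, with log2 fold changes of -3.20 under mock and -2.92 under IAA. ERL2 had log2 fold changes of -1.97 in both treatments. The auxin response gene IAA19 rose with IAA by a log2 fold change of 2.32 in wild type and 2.82 in the mutant. The labels do not say whether replicates came from separate cultures, so p-values measure the spread between these samples, which may be technical. Replicates of each group differed by more than sampling noise, with chi-square values of 8.05 to 18.8 per degree of freedom, and none was a copy of another.

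The members form pairs of close relatives. In the TAIR10.1 reference annotation the coding sequences of ARR16 and ARR17 were 83.4% identical over their aligned bases, those of ARR3 and ARR4 83.2%, of ARR5 and ARR6 81.4%, of ARR8 and ARR9 81.3%, and of ARR7 and ARR15 79.0%. The next most alike members, ARR5 and ARR7, were 75.1% identical. The stretch below, read from the RefSeq genome, is the longest that ARR3 and ARR4 share exactly, 41 bases from base 541 of the ARR3 and base 268 of the ARR4 coding sequence. It is shown because those 2 genes differ widely in level and in response.

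ARR3 and ARR4: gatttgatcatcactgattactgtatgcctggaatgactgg

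The read length and the treatment of reads that match several genes are not given in the sources used here, so reads could have been shared between such mates where these match. The count of a member can also hold reads of a gene that overlaps it. ARR6 overlapped a protein-coding gene on the opposite strand, and ARR8 and ARR9 each overlapped a long non-coding RNA gene on the opposite strand. The other 7 members overlapped none. The libraries were directional, per the labels, but whether counting used strand is not given in the sources used here.

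The 300 bases before the annotated start of 5 members are printed below, because these 5 carried the calls that were made for IAA or for genotype over both treatments. They come from the TAIR10.1 assembly (RefSeq), read 5′ to 3′ on the strand of the gene. The windows are chr1:28133026-28133325 on the minus strand for ARR15, chr1:6579315-6579614 minus for ARR7, chr1:22067234-22067533 minus for ARR3, chr2:16969373-16969672 plus for ARR16 and chr5:25254319-25254618 minus for ARR6. Capitals mark AGATT, the core recognised by type-B regulators, or its other-strand form AATCT, and the auxin response elements TGTCTC and TGTCGG or their other-strand forms.

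ARR15: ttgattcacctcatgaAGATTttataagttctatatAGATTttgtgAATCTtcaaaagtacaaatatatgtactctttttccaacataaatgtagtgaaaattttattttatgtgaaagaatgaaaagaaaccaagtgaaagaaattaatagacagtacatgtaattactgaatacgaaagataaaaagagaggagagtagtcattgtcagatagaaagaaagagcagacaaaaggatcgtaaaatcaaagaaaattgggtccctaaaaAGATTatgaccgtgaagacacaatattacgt

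ARR7: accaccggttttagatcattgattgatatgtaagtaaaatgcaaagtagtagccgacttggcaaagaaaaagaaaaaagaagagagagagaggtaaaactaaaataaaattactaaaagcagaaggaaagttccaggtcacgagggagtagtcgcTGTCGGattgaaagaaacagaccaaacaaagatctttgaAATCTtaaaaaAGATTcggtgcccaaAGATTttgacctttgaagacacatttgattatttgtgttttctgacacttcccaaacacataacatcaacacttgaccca

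ARR3: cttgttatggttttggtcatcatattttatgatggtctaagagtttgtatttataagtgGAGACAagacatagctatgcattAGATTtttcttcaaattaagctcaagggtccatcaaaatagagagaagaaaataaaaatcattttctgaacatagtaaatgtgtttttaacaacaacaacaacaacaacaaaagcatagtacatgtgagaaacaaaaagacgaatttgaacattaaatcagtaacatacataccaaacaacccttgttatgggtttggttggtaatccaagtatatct

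ARR16: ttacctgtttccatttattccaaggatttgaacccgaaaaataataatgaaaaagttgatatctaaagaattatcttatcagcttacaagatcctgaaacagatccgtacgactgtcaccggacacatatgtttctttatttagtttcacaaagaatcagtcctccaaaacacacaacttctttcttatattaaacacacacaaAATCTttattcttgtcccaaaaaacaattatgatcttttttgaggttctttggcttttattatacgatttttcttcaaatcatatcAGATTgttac

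ARR6: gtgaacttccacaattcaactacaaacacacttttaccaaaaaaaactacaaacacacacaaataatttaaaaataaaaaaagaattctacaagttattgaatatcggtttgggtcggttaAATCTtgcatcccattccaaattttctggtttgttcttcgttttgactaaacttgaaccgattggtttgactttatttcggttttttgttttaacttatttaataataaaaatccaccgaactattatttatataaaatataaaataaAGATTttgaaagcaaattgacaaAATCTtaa

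AGATT was found on either strand in 7 of the 10 member windows, against 70.7% of 27443 protein-coding promoters of the same length, so the share in the members was close to that in all genes. ARR15 held 4 copies, ARR7 and ARR6 3 each, ARR16 and ARR9 2 each, and ARR3 and ARR8 1 each. The windows of ARR4, ARR5 and ARR17 held none. The longer form AGATACG was in 0 of the 10 windows and in 2.08% of all promoters. TGTCTC was found in ARR3 alone, on the other strand, against 13.0% of all promoters, and TGTCGG in ARR7 alone, against 4.91%. No match of 1 motif overlapped a match of another. A match describes letters in a window and is no evidence of binding.

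**Figure D1:**
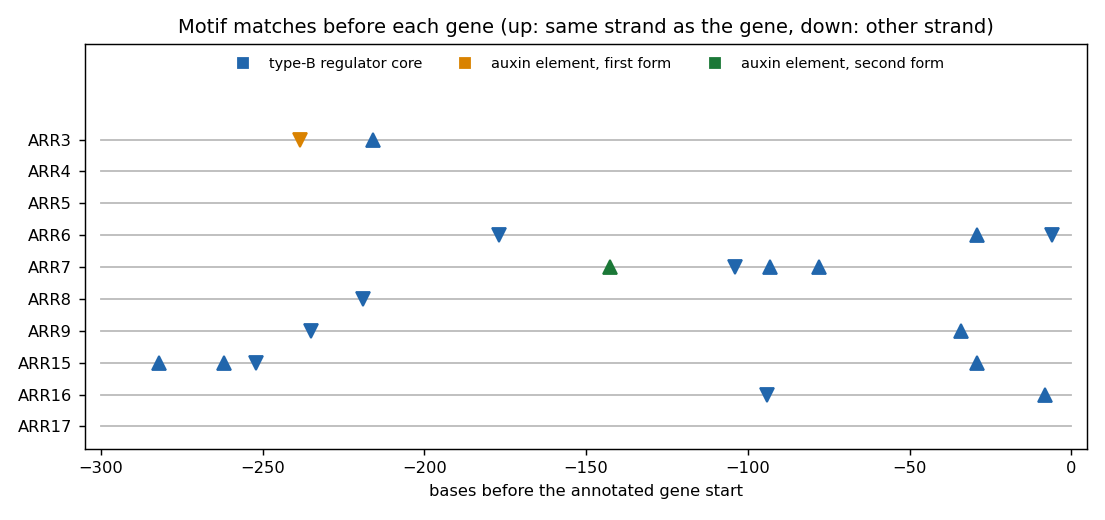
Positions of the searched motifs in the 300 bases before the annotated start of each member, in bases before the start; triangles point up for the gene's own strand and down for the other strand. ARR15 has 4 matches of the type-B regulator core, and ARR4, ARR5 and ARR17 have no match of any motif.

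The members covered a wide range of levels. Per kilobase of exon, ARR7 was the most abundant over the 4 groups, at 71.8 CPM per kb (range over the 12 libraries 44.4 to 96.8), followed by ARR4 at 58.0 (46.3 to 79.0). ARR6 lay at 24.5, ARR9 at 16.7, ARR8 at 11.3 and ARR5 at 9.11 CPM per kb. The lowest levels were those of ARR15 at 3.09, ARR16 at 1.99, ARR3 at 1.20 and ARR17 at 0.494 CPM per kb. In this order 2 of the 9 neighbouring pairs had ranges that did not overlap, ARR4 above ARR6 and ARR5 above ARR15. All other neighbours overlapped over the 12 libraries. In whole seedlings, fewer cells with a transcript and less transcript per cell cannot be told apart.

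The order within the family was not the same in each group. ARR4 was first in wild-type mock libraries, at 56.0 ± 5.87 CPM per kb against 48.4 ± 5.89 for ARR7, and ARR7 was first in the other 3 groups. In wild-type IAA libraries ARR7 lay at 74.2 ± 19.6 CPM per kb, beside 68.4 ± 9.42 for ARR4. ARR3 was seventh in wild-type mock libraries and ninth in the other 3 groups. In er erl2 IAA libraries ARR3 was nearly level with ARR17, at 0.554 ± 0.337 against 0.544 ± 0.448 CPM per kb. These places are a description and were not tested.

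**Figure D2:**
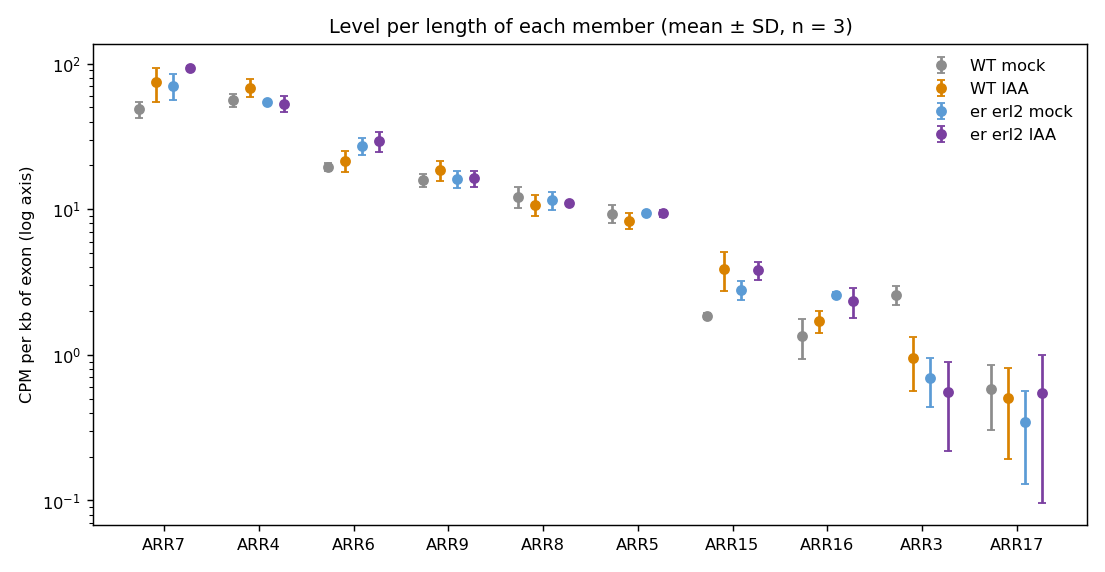
Level of each member in CPM per kb of exon (log axis), as the mean ± SD of 3 libraries in each group, ordered by the mean over groups. ARR7 and ARR4 lie above 40 in the 4 groups, while ARR17 lies below 1.

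The first question was how 30 min of IAA changed these genes in wild type. At an adjusted p under 0.05 over all genes tested, 1 of 10 members was called, ARR15, against 1.21% of all genes in this comparison, of which 1.06% were higher and 0.154% lower. The median log2 fold change was 0.182 over the members and 0 over all genes. Estimates lay above 0 for 6 members and for 49.9% of all genes. Averaged over both genotypes, ARR15 was again the called member, against 2.65% of all genes. In er erl2 alone 0 of 10 were called by edgeR, against 1.53% of all genes. There 1 member reached an unadjusted p under 0.05, as did 11.3% of all genes, and DESeq2 and limma-voom also called 0.

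ARR15, a low-level regulator that acts in the meristems, rose with IAA. Its wild-type mock libraries held 1.91, 2.09 and 1.99 CPM, and its wild-type IAA libraries 3.26, 3.76 and 5.63 CPM. All 3 IAA libraries lay above all 3 mock libraries, and the highest of them, replicate 3, stood apart from the other 2. That library was the highest of its group for 9 of the 10 members, and the same share over all genes was not counted. The log2 fold change was 1.07 (SE 0.209, adjusted p = 0.0173), a 2.1-fold difference. The er erl2 libraries held 3.15, 3.37 and 2.52 CPM under mock and 3.81, 4.76 and 3.75 CPM under IAA, again without overlap. Their log2 fold change of 0.45 (SE 0.200, adjusted p = 0.413) was not called. Averaged over genotypes the log2 fold change was 0.76 (SE 0.145, adjusted p = 0.00753).

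The wild-type call of ARR15 was lost without the IAA replicate 3 (log2 fold change 0.81, adjusted p = 0.0774), without the mock replicate 1 (1.04, adjusted p = 0.0578) and without the mock replicate 2 (1.1, adjusted p = 0.0655). It was lost too with limma-voom (adjusted p = 0.0556) and when only the groups compared were fitted (adjusted p = 0.0723). The averaged call held in all 18 alternatives.

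ARR7, the closest relative of ARR15, was measured at 43.0, 41.9 and 52.0 CPM in wild-type mock libraries and at 52.3, 68.7 and 89.1 CPM in wild-type IAA libraries. The lowest IAA library lay barely above the highest mock library, and the IAA libraries were widely spread. The log2 fold change of 0.62 (SE 0.194, adjusted p = 0.283) was not called by edgeR, while DESeq2 called it (adjusted p = 0.0196). The er erl2 libraries held 52.9, 79.3 and 67.5 CPM under mock and 86.4, 88.1 and 91.3 CPM under IAA, with a log2 fold change of 0.41 (SE 0.191, adjusted p = 0.462). Averaged over genotypes the value was 0.51 (SE 0.136, adjusted p = 0.0987), which DESeq2 (adjusted p = 0.000997), limma-voom (adjusted p = 0.0411) and the fit without wild-type IAA replicate 1 (0.60, adjusted p = 0.0206) called.

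ARR3, which together with ARR4 has a known part in setting the period of the circadian clock, had the lowest estimate among the members. The wild-type mock libraries held 2.82, 3.68 and 3.68 CPM and the IAA libraries 1.75, 0.746 and 1.22 CPM, from 25 to 109 reads. The groups did not overlap, and the log2 fold change of -1.45 (SE 0.377, adjusted p = 0.110) was not called. DESeq2 (adjusted p = 0.0170) and the fit without er erl2 IAA replicate 2 (adjusted p = 0.0354) called it. The er erl2 libraries held 0.526, 1.1 and 1.11 CPM under mock and 1.18, 0.302 and 0.697 CPM under IAA, which overlapped, with a log2 fold change of -0.30 (SE 0.443, adjusted p = 0.875).

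The other 7 members had wild-type IAA estimates from -0.20 (ARR17) to 0.34 (ARR16), with adjusted p from 0.379 to 0.956. Among them were ARR5 and ARR6, which cytokinin is known to raise within minutes. ARR5 stood at 15.3, 13.7 and 11.5 CPM under mock and 10.9, 11.5 and 13.8 CPM under IAA in wild type, with a log2 fold change of -0.16 (SE 0.112, adjusted p = 0.685). ARR17 held 1 to 20 reads in a library, and its standard errors ran from 0.529 to 1.06. A difference of the size of those errors would not have passed the threshold at this depth.

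Whether the IAA effect depended on genotype was tested by the interaction. Adjusted over all genes, 0 of 10 members and 0% of the genes tested were called by edgeR. DESeq2 called 16 genes and 0 members. At an unadjusted p under 0.05 there were 2 members and 1279 genes, 5.98% of all genes. The 2 members were ARR15 (log2 difference -0.62, SE 0.290, unadjusted p = 0.0493, adjusted p = 0.806) and ARR4 (-0.33, SE 0.152, unadjusted p = 0.0483, adjusted p = 0.806). The IAA effect on ARR15 was thus estimated lower in er erl2, but the difference did not pass the correction.

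**Figure D3:**
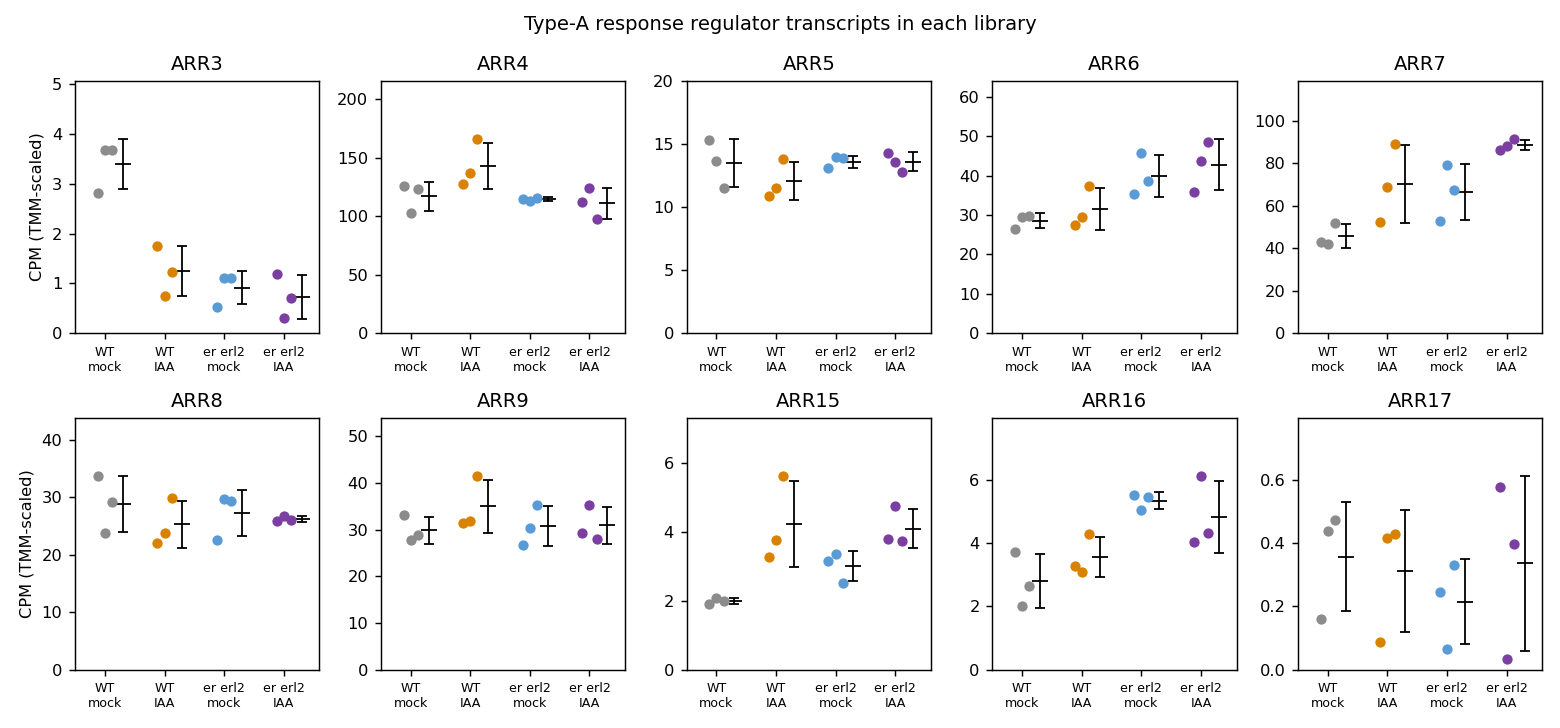
CPM of each member in every library, by group, with the mean ± SD of 3 libraries beside the points. ARR3 is highest in the 3 wild-type mock libraries, and ARR15 is lowest there.

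The second question was how the genotypes differed. Under mock, 3 of 10 members were called, ARR16 and ARR6 higher in er erl2 and ARR3 lower, against 15.7% of all genes (8.4% higher and 7.33% lower). Under IAA 1 of 10 was called, ARR4 lower, against 14% of all genes (7.14% higher and 6.84% lower). Averaged over treatments 4 of 10 were called, ARR7, ARR16 and ARR6 higher and ARR3 lower, against 27.8% of all genes. The median log2 fold change of the members was 0.028 under mock, 0.103 under IAA and 0.0374 on average, beside -0.0133, -0.00291 and -0.00773 over all genes. With backgrounds this high and directions that differ between members, the counts do not set the family apart. The comparisons under each treatment and their average share libraries, and so are not separate evidence.

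ARR16, which has been linked to the stomatal lineage together with ARR17, rose in er erl2 under mock. Its wild-type mock libraries held 3.73, 2.03 and 2.64 CPM and its er erl2 mock libraries 5.53, 5.04 and 5.45 CPM. All 3 mutant libraries were above all 3 wild-type libraries, with a log2 fold change of 0.93 (SE 0.216, adjusted p = 0.00973), a 1.91-fold difference. Under IAA wild type held 3.29, 3.10 and 4.28 CPM and er erl2 4.04, 6.13 and 4.31 CPM, which overlapped. That log2 fold change of 0.44 (SE 0.212, adjusted p = 0.191) was not called, and the average was 0.68 (SE 0.152, adjusted p = 0.00383). The mock and averaged calls held in all alternatives, 19 and 18 in number. ARR17 had genotype estimates of -0.68 (adjusted p = 0.604) under mock and 0.15 (adjusted p = 0.916) under IAA, with overlap in both.

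Markers of the stomatal lineage moved with genotype in the same libraries. Of 8 markers, 7 were called higher in er erl2 under mock and 6 under IAA, and none was at 0. Their summed level was 38.9 to 46.2 CPM in wild-type mock, 40.5 to 44.4 in wild-type IAA, 101 to 115 in er erl2 mock and 85.4 to 117 CPM in er erl2 IAA libraries. Of 6 shoot markers 3 were called higher and 1 lower under mock, with sums of 27800 to 29600 CPM in wild type and 32600 to 34400 CPM in er erl2. Nearly all of these sums came from RBCS1A, LHCB1.3 and LHCB2.1, at 11700, 15000 and 2210 CPM in wild-type mock libraries. From wild type to er erl2 under mock, STM went from 1.5 to 1.52 CPM, YAB1 from 56.9 to 44.0 and YAB3 from 49.9 to 60.4. Of 8 root markers 1 was called lower, with sums of 90.9 to 104 CPM in wild type and 75.4 to 94.2 CPM in er erl2. With IAA the root marker sums were 84.7 to 86.2 CPM in wild type, below all its mock libraries, and 76.8 to 82.4 CPM in er erl2. The 8 root markers had a median log2 fold change with IAA of -0.45 in wild type, against 0.04 in the mutant. RHD6 was the 1 called, lower in wild type (-1.10, SE 0.205, adjusted p = 0.0125). In er erl2 RHD6 went from 4.5 to 2.86 CPM without overlap and was not called. In wild type COBL9 went from 9.65 to 5.88 CPM, PLT1 from 3.15 to 1.72 and PLT2 from 1.92 to 1.07. SCR went from 36.4 to 33.3 CPM, WOX5 from 3.83 to 3.38, EXPA7 from 19.9 to 20.5 and SHR from 16.6 to 16.9. The part of root makeup in the wild-type IAA values of ARR3 was not tested. The part of cell type makeup in the genotype differences of ARR16 and the other members was not tested. The 4 vascular markers were summed at 120 to 131 and 113 to 117 CPM under mock in the genotypes, and at 136 to 149 and 129 to 138 CPM under IAA, where TMO5 and ATHB-8 were called higher with IAA in each genotype. The other vascular markers were not called: LHW went from 60.5 to 55.3 CPM in wild type and from 54.3 to 51.9 CPM in er erl2, without overlap, and APL had log2 fold changes of 0.23 in wild type and 0.01 in er erl2, with overlap. The part of these in the IAA effect on ARR15 was not tested either. Seed storage transcripts summed to at most 1.22 CPM.

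ARR6 rose in er erl2 by a smaller amount. Its wild-type libraries held 26.5, 29.6 and 29.8 CPM under mock and 27.4, 29.6 and 37.5 CPM under IAA. The er erl2 libraries held 35.3, 45.8 and 38.6 CPM under mock and 35.8, 43.8 and 48.7 CPM under IAA. The groups were apart under mock and overlapped under IAA. ARR6 had a log2 fold change of 0.48 (SE 0.140, adjusted p = 0.0386) under mock, 0.44 (SE 0.139, adjusted p = 0.0557) under IAA and 0.46 (SE 0.0986, adjusted p = 0.00466) averaged.

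The averaged ARR6 call held in all 18 alternatives, from 0.41 to 0.54. The mock call was lost without any of wild-type mock replicates 1, 2 and 3 (adjusted p = 0.107, 0.0924 and 0.0745), wild-type IAA replicate 2 (0.0515), er erl2 mock replicates 2 and 3 (0.132 and 0.0843) and er erl2 IAA replicate 2 (0.0507), and with no count filter (0.0571). The value under IAA was called by DESeq2 (adjusted p = 0.0150), by limma-voom (0.0414), at a mean CPM of at least 1 (0.05), and without wild-type IAA replicate 3 (0.0168), er erl2 mock replicate 2 (0.0434) or er erl2 IAA replicate 1 (0.0240). ARR6 lies 0.26 Mb from ERL1, which was called higher in er erl2 on average over treatments (0.97, SE 0.149). Of the 20 tested genes flanking ARR6, an equal number per side, 3 were called under mock and 1 under IAA. Of all genes 15.7% and 14% were called there.

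ARR7 rose in er erl2 when both treatments were averaged, from the libraries given above. The estimate was 0.54 (SE 0.194, adjusted p = 0.0905) under mock, 0.34 (SE 0.191, adjusted p = 0.278) under IAA and 0.44 (SE 0.136, adjusted p = 0.0362) averaged. The averaged call was lost without wild-type mock replicates 1 or 2 (adjusted p = 0.0790 and 0.0834), wild-type IAA replicate 2 (0.0722), er erl2 mock replicates 2 or 3 (0.0748 and 0.0721), er erl2 IAA replicates 1, 2 or 3 (0.0610, 0.0653 and 0.0745), or the count filter (0.0618). The value under mock was called by DESeq2 (0.0117) and without wild-type IAA replicates 1 or 3 (0.0371 and 0.0407) or er erl2 mock replicate 1 (0.0453).

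ARR3 fell in er erl2 under mock, from the values given above, where every er erl2 library lay below every wild-type library. The log2 fold change was -1.89 (SE 0.391, adjusted p = 0.00529), and mutant libraries held 0.270 times the wild-type level. Under IAA, where the genotypes overlapped, it was -0.74 (SE 0.429, adjusted p = 0.281), and the average was -1.32 (SE 0.290, adjusted p = 0.00420). The mock and averaged calls held in all 19 and 18 alternatives. The 12 libraries held 9 to 109 reads of ARR3. Its relative ARR4 had, under mock, a log2 fold change of -0.04 (SE 0.108, adjusted p = 0.863).

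ARR4, known to bind the red light receptor phytochrome B, was lower in er erl2 under IAA. Wild-type libraries held 126, 103 and 123 CPM under mock and 128, 137 and 166 CPM under IAA, and er erl2 libraries 115, 113 and 116 CPM under mock and 112, 124 and 97.3 CPM under IAA. The IAA groups did not overlap, the highest er erl2 library lying just below the lowest wild-type one. ARR4 had a log2 fold change of -0.37 (SE 0.108, adjusted p = 0.0386) under IAA and -0.20 (SE 0.0760, adjusted p = 0.0660) averaged.

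This call was among the least stable. It was lost without wild-type IAA replicate 2 (-0.40, adjusted p = 0.0630) or 3 (-0.24, adjusted p = 0.137), er erl2 mock replicates 1, 2 or 3 (adjusted p = 0.0549, 0.0534 and 0.0543), or er erl2 IAA replicates 1 or 3 (0.0942 and 0.144). Fitting only the groups compared (0.0728) ended it too. The averaged value was called by DESeq2 (0.0494) and without wild-type mock replicate 2 (0.0279), wild-type IAA replicate 1 (0.0414) or er erl2 IAA replicate 2 (0.0326).

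The other 4 members, ARR5, ARR8, ARR9 and ARR17, were not called in any of the 7 contrasts. Their averaged genotype estimates ran from -0.26 (ARR17, SE 0.530) to 0.09 (ARR5, SE 0.0787). ARR8 and ARR9, which carry longer tails after the receiver domain than most members, ranged from 22.1 to 33.6 CPM and from 26.7 to 41.5 CPM over the 12 libraries. ARR15 had a genotype estimate of 0.59 (SE 0.213, adjusted p = 0.0785) under mock and -0.04 (SE 0.196, adjusted p = 0.927) under IAA. Without wild-type IAA replicate 3 its mock value was called (adjusted p = 0.0342), and so was its averaged value (0.41, adjusted p = 0.0264).

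**Figure D4:**
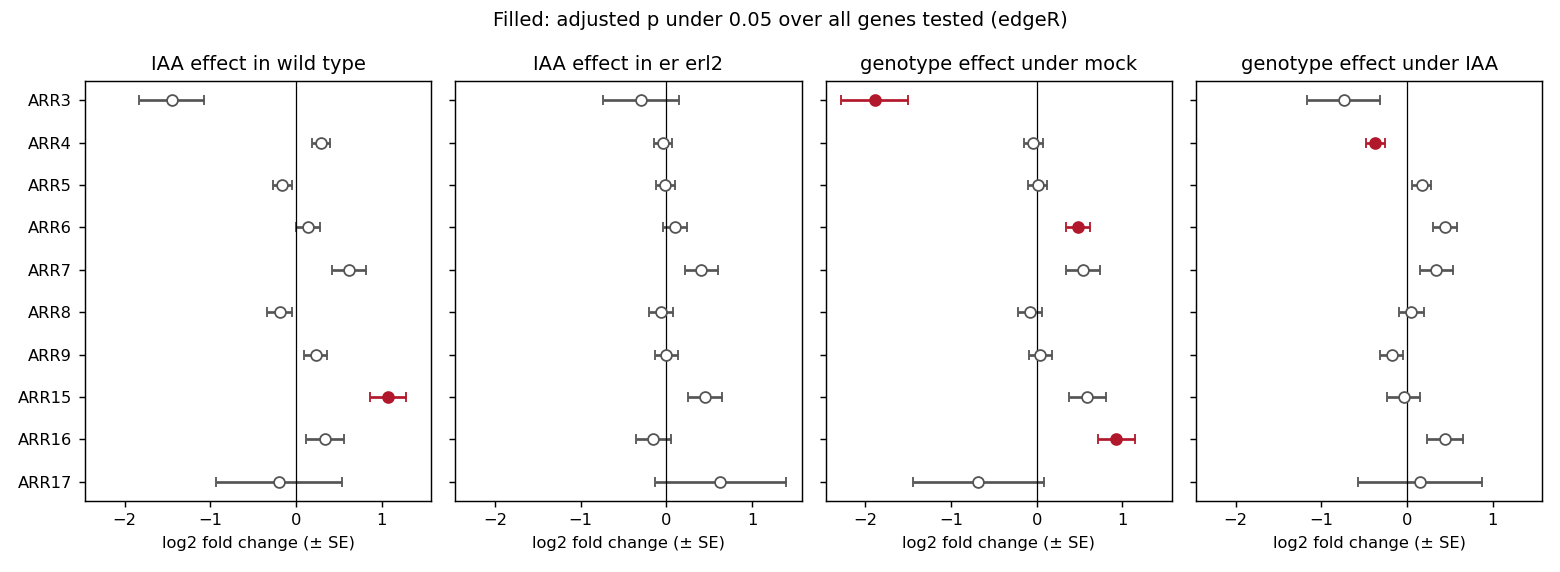
Log2 fold change ± SE of each member in the contrasts for IAA and for genotype; filled points passed an adjusted p under 0.05 over all genes. ARR15 is filled for IAA in wild type, ARR3, ARR6 and ARR16 for genotype under mock, and ARR4 for genotype under IAA.

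The other genes of the cytokinin pathway were taken as 7 lists of 55 genes, of which 44 were tested and 11 were not. With IAA averaged over genotypes 8 of the 44 rose and 3 fell, beside 1.94% and 0.711% of all genes. With genotype averaged over treatments 7 rose and 8 fell in er erl2, beside 14.1% and 13.7% of all genes. The median log2 fold changes were 0.04 and -0.06.

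Of the 3 receptors, AHK4 (CRE1), the receptor that is most active in the root vasculature, fell with IAA by a log2 fold change of -0.32 (SE 0.0628, adjusted p = 0.00912) and was lower in er erl2 (-0.23, SE 0.0628, adjusted p = 0.0130). AHK2 and AHK3 were not called. Of 6 phosphotransfer genes, AHP6, whose product lacks the phosphate-accepting histidine and inhibits signalling, rose with IAA by 0.93 (SE 0.201, adjusted p = 0.0193). Its wild-type libraries held 1.17, 1.18 and 0.879 CPM under mock and 1.39, 2.00 and 1.28 CPM under IAA, without overlap, and the log2 fold change of 0.53 (SE 0.288, adjusted p = 0.578) was not called. Its er erl2 libraries held 1.42, 0.801 and 0.636 CPM under mock and 2.39, 2.21 and 2.55 CPM under IAA, also without overlap, with a log2 fold change of 1.33 (SE 0.281, adjusted p = 0.0253). That call was lost without er erl2 mock replicates 2 or 3 (adjusted p = 0.107 and 0.147) or er erl2 IAA replicates 1 or 3 (0.0870 and 0.105). The averaged call of AHP6 was lost without wild-type IAA replicate 2 (adjusted p = 0.0593) or er erl2 mock replicates 2 or 3 (0.0551 and 0.0527). In er erl2, AHP4 (0.67, SE 0.164) and AHP2 (0.25, SE 0.0496) were higher and AHP3 (-0.22, SE 0.0474) was lower.

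Neither type-C regulator, ARR22 or ARR24, had a read in any library, so neither was tested. None of the 6 tested type-B regulators, of 11 listed, was called for IAA or genotype in the averaged contrasts. Of 6 cytokinin response factors, AP2-type transcription factors that act beside the type-B regulators, CRF3 rose with IAA on average (0.55, SE 0.0942, adjusted p = 0.00321). It was called in er erl2 (0.78, adjusted p = 0.00546) and not in wild type, where CRF3 went from 12.5 to 15.7 CPM without overlap. Under mock CRF3 was lower in er erl2 (-0.44, adjusted p = 0.0396), a call lost in 10 of 19 alternatives. CRF1 was lower in er erl2 (-0.49, SE 0.125, adjusted p = 0.00899). CRF2 was higher in er erl2 (0.24, adjusted p = 0.0459), and that call was lost in 9 of 18 alternatives.

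Of 20 synthesis genes 17 were tested. CYP735A2 and CYP735A1, which make trans-zeatin forms, fell with IAA (-0.96, SE 0.106, and -1.09, SE 0.220), while LOG4, which frees active cytokinin from its nucleotide, rose (1.29, SE 0.162). LOG3 was called at the threshold (0.78, adjusted p = 0.0499) and lost in 11 of 18 alternatives. In er erl2, averaged over treatments, IPT3 (0.51), IPT7 (0.78) and LOG1 (0.42) were higher and IPT1 (-0.87), LOG2 (-2.02), LOG9 (-2.45) and LOG8 (-0.16) were lower. Under mock alone 0 of the 17 were called for genotype, beside 15.7% of all genes. Under IAA alone 4 were called, LOG1, IPT3, IPT1 and LOG9, beside 14% of all genes. The large values of LOG2 and LOG9 rest on low counts. LOG2 lay at 0.23 CPM in wild type and 0.0325 in er erl2 under mock, and at 0.413 and 0.164 under IAA. LOG9 lay at 0.371 and 0.113 CPM under mock, with overlap, and at 0.527 and 0.0557 under IAA. IPT7, LOG2 and LOG8 lost their calls in 5, 2 and 9 of 17, 17 and 18 alternatives. Of the 6 tested genes of the oxidases that degrade cytokinin, 4 rose with IAA, CKX3 (2.23), CKX6 (1.85), CKX1 (1.40) and CKX5 (0.57). In er erl2 CKX7 was higher (0.83) and CKX3 lower (-0.83), and the CKX3 call was lost without wild-type mock replicate 2 (adjusted p = 0.0651) or er erl2 mock replicate 1 (0.0573).

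**Figure D5:**
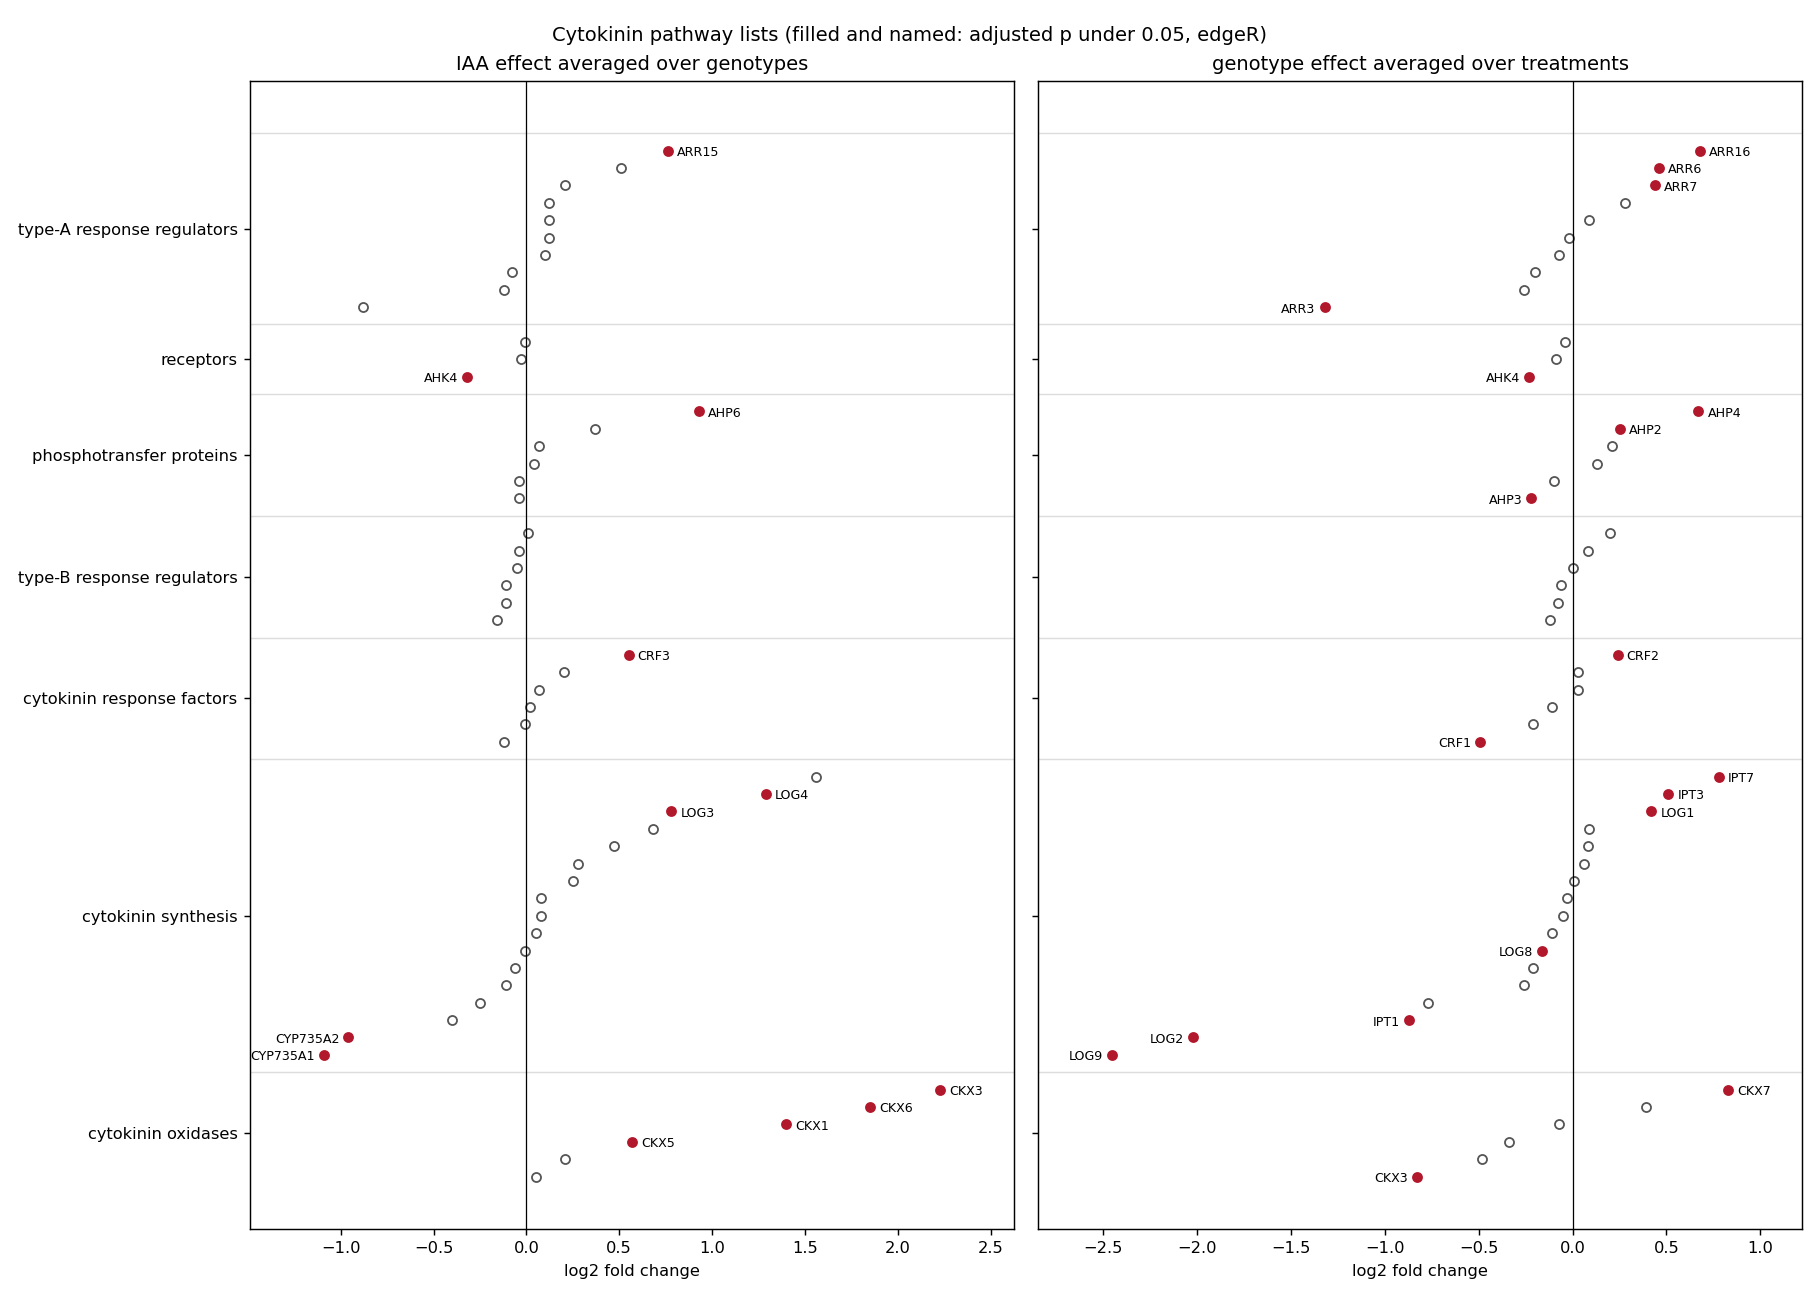
Log2 fold change of each tested gene of the pathway lists for the IAA and the genotype effect averaged over the other factor; filled and named genes passed an adjusted p under 0.05. Among the receptors only AHK4 is filled, and no type-B regulator is.

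The genes most like a called member over the 12 libraries were taken by the root mean square difference of centred log2 CPM, as a description. For ARR15 these were RTFL16 (AT3G25717, 0.214) and the SAUR-like auxin-responsive gene AT4G38840 (0.218), beside a spread of ARR15 itself of 0.462. For ARR16 they were SIG4, a plastid sigma factor (0.124), and the zinc finger gene AT4G17810 (0.149), beside 0.446. For ARR7 they were the F-box gene AT2G32560 (0.153) and AT5G43450 (0.157), beside 0.402, and for ARR6 AT1G63880 (0.101) and AT3G50240 (0.107), beside 0.284. ARR4 was nearest to EIL1 (0.0805), a transcription factor of ethylene signalling, and AT1G79630 (0.0833), beside 0.190. ARR3 had the largest differences, to the peroxidase gene AT2G39040 (0.477) and AT5G02360 (0.515), but also the largest spread of its own, 1.00.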

How the data were processed

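Transcripts were measured by poly-A RNA sequencing in 12 libraries, 3 per group, and the authors deposited 1 table of raw counts per gene, as whole numbers. Per the submitters' processing notes, bcl2fastq, STAR 2.7.6a, featureCounts 2.0.0 and the TAIR10 build were used, while their settings and the annotation are not given in the sources used here. The table holds no coordinates, and positions, exon lengths and sequences are those of TAIR10.1 (RefSeq), of which 37051 of 37336 locus codes matched. With 28930625 to 35837999 counts per library and no molecular identifiers stated, low counts such as those of ARR17 carry large counting error.

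Counts were fitted with edgeR 4.0.16 (R 4.3.3): filterByExpr (minimum count 10, minimum total 15), TMM scaling (factors 0.973 to 1.02), 1 mean per group over the 12 libraries, and robust quasi-likelihood tests of 7 contrasts. The Benjamini-Hochberg adjustment covered 21376 genes, and a gene is called at an adjusted p under 0.05. Standard errors derive from the fold change and its F statistic. CPM use the TMM-adjusted library size. The code of the fit was checked on simulated counts with a preset spread. That check does not measure power at the depth of single members. Alternatives were no count filter, a mean CPM of at least 1, limma-voom with limma 3.58.1, DESeq2 1.42.0 (its Wald test, and its size factors in edgeR), a fit with a replicate block, a fit of the compared groups alone, and fits without each library in turn.

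The members and lists were chosen with earlier results of these data known. Named are all members, ER, ERL2, ERL1 and IAA19, pathway genes called in at least 1 contrast, with their averaged values, and for each called member the 2 nearest genes in pattern.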

Additional observations from a re-analysis of the deposited data

How the results depend on the processing

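With DESeq2, 411 genes were called for IAA in wild type, 617 in er erl2, 860 on average and 16 for the interaction, and fitting only the groups compared called 172 for IAA in wild type. Without 1 library the counts ran from 164 to 337, 219 to 561, 442 to 765 and 0 to 7 in that order, and for genotype from 2029 to 3482 under mock, 1946 to 3216 under IAA and 4943 to 5919 averaged. Of the 10 members, IAA in wild type called 3 with DESeq2 and 0 with limma-voom or only the groups compared (0 to 2 without 1 library). IAA on average called 2 with DESeq2, limma-voom and the replicate block (1 to 2 without 1 library). Genotype under IAA called 2 with DESeq2, limma-voom or a mean CPM of at least 1, and 0 with only the groups compared (0 to 1 without 1 library). Without 1 library, genotype called 2 to 5 members under mock and 3 to 5 averaged.

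Of 10 called member estimates, 6 were called in all alternatives and none changed sign. The median log2 fold change of all genes was at most 0.0157 in size under each setting. Replicate numbers did not pair the samples: same-numbered libraries correlated at -0.175 to 0.0935 in their deviations from group means, none of 18 pairs over 0.1, and 3 of 12 libraries had their best partner by number. With the replicate block ARR7 was called for IAA on average (adjusted p = 0.0298) and for genotype under mock (0.0376), ARR6 for genotype under IAA (0.0103), and ARR4 was not called under IAA (0.0748).

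Uncalled estimates that changed sign did so near 0 or at low counts, and the cause was not tested. With limma-voom these were ARR15 for genotype under IAA (0.00) and ARR17 for IAA on average (-0.05) and genotype under IAA (-0.17). Without 1 library, IAA in er erl2 ran from -0.86 to 0.06 for ARR3, -0.13 to 0.04 for ARR4, -0.05 to 0.03 for ARR5, -0.01 to 0.21 for ARR6, -0.17 to 0.01 for ARR8, -0.10 to 0.11 for ARR9 and -0.03 to 1.14 for ARR17. IAA in wild type ran from 0.00 to 0.23 for ARR6 and -0.56 to 0.24 for ARR17, and IAA on average from -0.01 to 0.23 for ARR16 and -0.12 to 0.47 for ARR17. Genotype under mock ran from -0.12 to 0.02 for ARR4, -0.09 to 0.11 for ARR5, -0.20 to 0.04 for ARR8 and -0.07 to 0.13 for ARR9. Genotype under IAA ran from -0.02 to 0.20 for ARR8, -0.18 to 0.23 for ARR15 and -0.51 to 0.67 for ARR17, and genotype on average from -0.08 to 0.06 for ARR8 and -0.12 to 0.01 for ARR9. The interaction ran from -0.15 to 0.11 for ARR6 and -0.37 to 0.01 for ARR7.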

Other observations

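Summed over the 10 members, the level per length was 168 ± 11.6 CPM per kb in wild-type mock, 209 ± 39.5 in wild-type IAA, 196 ± 20.2 in er erl2 mock and 220 ± 8.54 CPM per kb in er erl2 IAA libraries (mean ± SD, n = 3). The wild-type IAA libraries summed to 175, 199 and 252, so that 1 library stood above the others. ARR7 made up 28.9%, 35.2%, 35.8% and 42.7% of that sum in the same order of groups, and ARR4 33.3%, 33.0%, 28.1% and 24.0%. ARR3 made up 1.55%, 0.473%, 0.348% and 0.256%. These shares are descriptions and were not tested.

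In their course over the 12 libraries, the members closest to each other were ARR4 and ARR9, then ARR5 and ARR8. Their root mean square differences of centred log2 CPM were 0.119 and 0.148. These differences are not scaled to the spread of each gene, so members that vary little lie close to each other. The relatives ARR8 and ARR9 differed by 0.179, ARR7 and ARR15 by 0.255 and ARR5 and ARR6 by 0.278. The relatives ARR3 and ARR4 differed by 1.02 and ARR16 and ARR17 by 1.15, so close relatives did not all follow a similar course.

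Of the 20 tested genes flanking ARR3, an equal number per side, 2 were called for genotype in each treatment, higher in er erl2. Around ARR16 1 of 20 was called under mock and 2 under IAA, all lower. Over all genes 15.7% were called under mock and 14% under IAA. Counts out of 20 genes are too small to set these regions apart from that share. The part of position in the differences of ARR3 and ARR16 was not tested. ARR16 lies 5.76 Mb from ER on the same chromosome.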
